A study of Mus musculus with 12 samples.

Results

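Arginase and polyamine metabolism was followed here as 10 genes that carry arginine into the cell, make or split it, and turn the ornithine that results into polyamines. They were Slc7a1, Ass1, Arg1, Arg2, Nos2, Odc1, Amd1, Srm, Sms and Sat1. A gene counted as measured where at least 1 probe set of the array was annotated to that gene and no other, and 9 of the 10 genes met this rule with 14 probe sets, among 17097 genes and 28898 probe sets in all. Amd1 had no probe set of its own in the annotation used and was not analysed here. A gene with several probe sets was represented by the one chosen by its mean level, the highest over the 12 arrays, called its lead probe set, and the others are given beside it. The 10 genes were chosen with earlier results of these arrays known, so the tests below describe these samples and are no independent support for the choice.

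Tail skin of CD1 mice carried a wound of 3 mm and was taken 4 days (D4) or 7 days (D7) later. The 6 groups were the leading edge (LE), from a punch of 4 mm around the wound, the proliferative hub, from a punch of 6 mm, and control skin far from the wound, each at D4 and at D7. Each sample came from a pool of 5 mice, from which 300 living cells with α6-integrin and without CD34 were sorted, a gate for basal cells of the interfollicular epidermis and infundibulum that leaves out the bulge. There were 2 arrays per group, named biological replicates in the labels, although separate pools are nowhere stated for them. The p values rest on the spread between arrays of a group, shared over the 6 groups, and on treating these arrays as independent. The labels name no mutant allele or transgene, and a group could hold every basal cell type that passed the gate. The age of these mice was not found in the labels or methods.

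Arginine enters keratinocytes through cationic amino acid transporters or is rebuilt from citrulline. Arginase splits it into urea and ornithine, while nitric oxide synthase uses the same arginine to make nitric oxide. Ornithine decarboxylase converts ornithine to putrescine, which is lengthened to spermidine and spermine, cations that bind nucleic acids and are needed by growing cells. In skin, Odc1 is best known from hair follicles and from the response of epidermis to tumour promoters, and Arg1 from liver and from alternatively activated macrophages.

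The deposited values are RMA log2 intensities, and all levels below are log2 intensities on 1 array each. Array medians were 5.40 to 5.47 at D4, against 4.25 to 4.28 at D7, so regions were compared within a day and days were compared only through such differences. Within a group the pair of arrays had a Pearson r of 0.988 to 0.993 over all probe sets (a description, as probe sets are no replicates) and differed by a median of 0.121 to 0.156 log2 units in either direction. The basal keratinocyte markers Krt5, Krt14, Itga6, Itgb4, Trp63 and Col17a1 lay above the array median on all 12 arrays. Of these, Itga6, which encodes the α6-integrin used for sorting, was called higher in LE than in control skin at D4 (0.42 ± 0.11 SE, adjusted p = 0.0327 in limma). Of 6 suprabasal markers, Krt1 (-0.77), Krt10 (-0.69) and Krt2 (-5.26) were called lower in LE at D4 than in control skin. Ivl (0.72 ± 0.24, adjusted p = 0.0800 in limma), Lor (-0.51) and Flg (-0.03) were not called there, and none of the 6 was called at D7. Called markers of other cells in LE against control skin, besides Cd68 and Cxcr2 at D4 that are given with Arg1 below, were the bulge genes Krt15 (-2.48 at D4, -1.88 at D7) and Sox9 (-0.61 at D4), Thy1 of the T cell list (-1.39 and -1.88), Epcam of the Langerhans and dendritic list (0.61 at D4), Plet1 of the infundibulum (-0.86 at D7), fibroblast Dcn (-2.59 at D7) and endothelial Cdh5 (2.03 at D7, and 2.56 against the hub). Krt15 (-1.90 at D4) and Thy1 (-1.07 and -1.56) were also lower in LE than in the hub. Cd3e, Cd3g and Cd3d were below the array median on all arrays. The summed intensity of 4 endothelial markers at D7 was 218.6 to 260.5 in LE, 92.1 to 109.6 in the hub and 86.3 to 111.8 in control skin. That of the Langerhans and dendritic list at D4 was 671.7 to 974.1 in LE, 603.7 to 784.5 in the hub and 457.6 to 541.7 in control skin. At D7 LE (506.0 to 523.9) overlapped control skin (400.8 to 654.8). In LE against control skin at D4, H2-Ab1 differed by 2.56 ± 1.04 (adjusted p = 0.150 in limma). Cd207 (-0.11), Cd74 (-0.18) and Itgax (-0.28) were not called either. The bulge markers Lgr5 (1.03 at D4, -0.88 at D7) and Cd34 (0.57 and 0.21) were not called in LE against control skin. Cd34 was below the array median on all 12 arrays. The part of the cells of these lists in the results below was not tested. A difference was called at an adjusted p under 0.05 in limma, with Benjamini-Hochberg adjustment over all 17097 genes and a spread shared by the 6 groups. In such bulk samples, fewer cells of a type and less RNA per cell cannot be told apart. The LE and the hub were set against the same control arrays, so those comparisons are not independent of each other.

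In LE, 4 of the 9 measured genes were higher than in control skin at D4 (Arg1, Ass1, Odc1 and Slc7a1) and 5 were at D7 (these 4 and Srm), while Sat1 was lower at both times. Over all genes tested, the share called higher in LE was 8.3% at D4 and 9.25% at D7, and the share called lower was 5.83% at D4 and 5.37% at D7. In the hub, 0 of the 9 genes were called at D4 in limma, and 1 gene, Ass1, was called higher at D7. At an unadjusted p under 0.05, 3 of the 9 were higher and 0 lower in the hub at D4, beside 6.90% and 4.07% of all genes, and 4 were higher and 1 lower at D7, beside 8.28% and 4.38%. The hub had few calls among all genes, with 0.222% (D4) and 0.591% (D7) higher and 0.105% (D4) and 0.17% (D7) lower. The median difference over the 9 genes between LE and control skin was 0.47 at D4 and 0.61 at D7 on the log2 scale, beside 0.03 and 0.02 over all genes. Without control replicate 1 or 2 of D4, 3 genes in place of 5 were called in LE at D4, and the calls of Ass1 in the hub and against the hub were each lost without some single arrays, named with that gene. Between the hub and control skin the median was 0.12 at D4 and 0.29 at D7, beside 0.01 and 0.02 over all genes. Set directly against the hub, LE had 2 genes called higher at D4 (Arg1 and Ass1) and 1 at D7 (Ass1), with 0 called lower at either time, where the share of all genes called higher was 2.61% (D4) and 1.33% (D7) and the share called lower 2.15% (D4) and 1.4% (D7). At an unadjusted p under 0.05, 3 of the 9 were higher in LE than in the hub at D4 (Arg1, Ass1 and Odc1), beside 8.86% of all genes. At D7 it was 4 (these 3 and Slc7a1), beside 8.48%. At that threshold 1 gene was lower in LE than in the hub at each time, which was Sat1, beside 7.46% of all genes at D4 and 7.30% at D7.

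**Figure D1:**
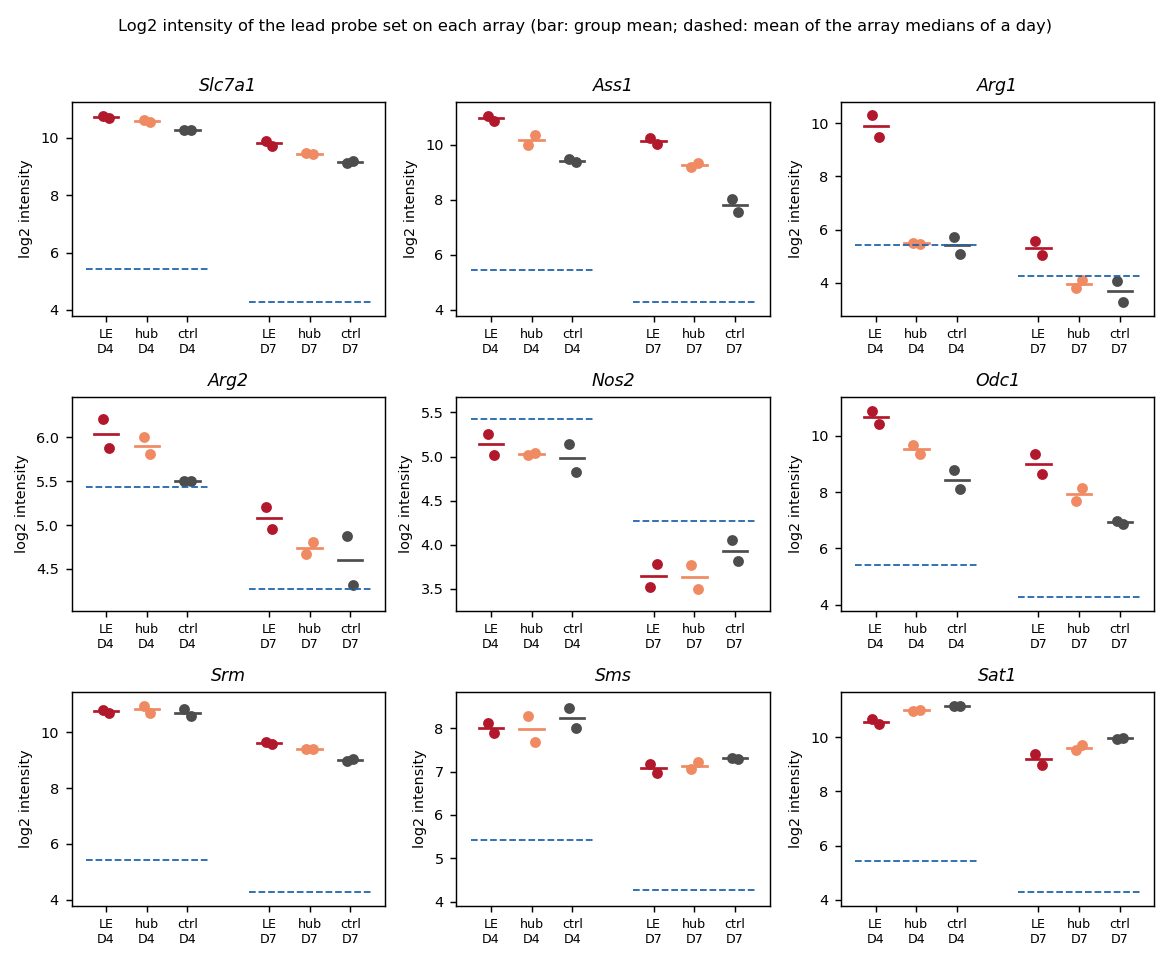
Log2 intensity (y axis) of the lead probe set of each of the 9 measured genes on the 12 arrays, with LE, hub and control skin (ctrl) at D4 and then at D7 along the x axis. Points are single arrays, bars are means of 2 arrays and dashed lines are the mean of the array medians of a day, and the y axes differ between genes. Arg1 in LE at D4 stands at 10.29 and 9.48, far above all other arrays of that day, while Ass1, Odc1 and Slc7a1 step down from LE through hub to control skin at both times.

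Of the 9 genes, 3 lay in the order LE above hub above control skin with no overlap of arrays at both times, namely Ass1, Odc1 and Slc7a1, and 3.37% of all genes did. Sat1 lay in the reverse order with no overlap at both times, as 1.68% of all genes did. The promoters of the 3 genes that stepped up are printed here because these genes moved together over the regions. They are RefSeq sequences on GRCm38.p6, 300 bases from 250 before to 50 after an annotated start, read 5′ to 3′ on the strand of the gene. Ass1 lies at chr2:31470020-31470319 (+), Odc1 at chr12:17544623-17544922 (+) and Slc7a1 at chr5:148399855-148400154 (-), the last being 1 of its 2 annotated starts. Capitals mark a match to the E-box CACGTG, the core sequence of MYC and USF factors, or to the AP-1 site TGANTCA, both searched on both strands with no overlap between them.
Ass1: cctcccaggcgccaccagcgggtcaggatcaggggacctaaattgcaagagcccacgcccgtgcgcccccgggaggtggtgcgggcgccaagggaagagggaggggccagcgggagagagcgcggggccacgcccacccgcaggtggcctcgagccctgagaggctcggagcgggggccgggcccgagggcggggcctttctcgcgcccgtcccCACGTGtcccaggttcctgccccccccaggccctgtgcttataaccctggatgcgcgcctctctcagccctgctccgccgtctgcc
Odc1: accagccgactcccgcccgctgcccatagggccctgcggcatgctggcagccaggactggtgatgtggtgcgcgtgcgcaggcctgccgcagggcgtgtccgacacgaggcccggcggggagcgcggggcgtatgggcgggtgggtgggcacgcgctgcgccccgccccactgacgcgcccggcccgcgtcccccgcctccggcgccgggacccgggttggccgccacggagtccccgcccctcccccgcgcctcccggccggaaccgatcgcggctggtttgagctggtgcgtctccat
Slc7a1: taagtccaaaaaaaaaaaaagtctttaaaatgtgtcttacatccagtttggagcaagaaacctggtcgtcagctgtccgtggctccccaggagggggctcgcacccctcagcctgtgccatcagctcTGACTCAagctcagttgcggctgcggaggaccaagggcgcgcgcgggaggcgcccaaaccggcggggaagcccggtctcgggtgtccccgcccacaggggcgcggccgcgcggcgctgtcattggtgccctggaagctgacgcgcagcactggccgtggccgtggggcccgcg
The Ass1 promoter held an E-box 36 bases before the start (position -36) and the Slc7a1 promoter an AP-1 site at -123, while neither motif was in the Odc1 window or in that of the other annotated Slc7a1 start. Among the members without such a step, 1 of the 2 annotated starts of Sms had an E-box, at -196, and the Sat1 window held neither motif. Arg1, Arg2, Nos2 and Srm had no sequence in the promoter set used and were not searched. Of 32851 promoters of that length, 7.15% held the E-box and 7.81% the AP-1 site. The matches are descriptions of the sequence and no factor was measured at them.

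Slc7a1, the main cationic amino acid transporter that brings arginine into the cell, had levels of 10.78 and 10.71 in LE, 10.61 and 10.55 in the hub and 10.27 and 10.28 in control skin at D4. At D7 the levels were 9.91 and 9.71 in LE, 9.47 and 9.44 in the hub and 9.14 and 9.19 in control skin. Both LE arrays were highest and both control arrays lowest on each day, with no overlap. The difference between LE and control skin was 0.47 ± 0.10 at D4 (SE; adjusted p = 0.0122) and 0.64 ± 0.10 at D7 (adjusted p = 0.00266). The hub differed from control skin by 0.30 at D4 (adjusted p = 0.262) and 0.29 at D7 (adjusted p = 0.245), and LE lay above the hub by 0.16 at D4 and 0.35 at D7 (adjusted p = 0.501 and 0.103), none of which passed the test. The call in LE at D4 was lost without LE replicate 1 (adjusted p = 0.0656) and without control replicate 1 or 2 of D4 (0.0544 and 0.0546), with the mean of all 3 probe sets (difference 0.40, adjusted p = 0.0850) and with only the 4 arrays compared (0.0948). LE against the hub at D7 passed with a trended and robust prior (adjusted p = 0.0448). The other 2 probe sets of Slc7a1 were higher in LE than in control skin at D7, by 0.78 ± 0.16 (adjusted p = 0.0109 in the fit of all probe sets) and 0.89 ± 0.20 (adjusted p = 0.0175). At D4 they differed by 0.27 and 0.45 and were not called.

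Ass1, argininosuccinate synthase, joins citrulline and aspartate in the first of the steps that rebuild arginine. Its levels at D4 were 11.05 and 10.86 in LE, 9.98 and 10.34 in the hub and 9.46 and 9.35 in control skin. At D7 they were 10.25 and 10.01 in LE, 9.18 and 9.34 in the hub and 8.03 and 7.56 in control skin. The 3 regions did not overlap on either day, and the hub stood between the other two. LE was higher than control skin by 1.55 ± 0.18 (SE, 2.92-fold, adjusted p = 0.000469) at D4 and by 2.33 ± 0.18 (5.04-fold, adjusted p = 6.58e-05) at D7, both called with any single array left out. The hub was 2.76-fold higher than control skin at D7 (log2 difference 1.46 ± 0.18, adjusted p = 0.00963), the only call for the hub among the 9 genes. At D4 the hub differed by 0.75 ± 0.18 (adjusted p = 0.139), which passed with a trended and robust prior (0.0480). LE was also higher than the hub, by 0.79 ± 0.18 at D4 (adjusted p = 0.0349) and 0.87 ± 0.18 at D7 (adjusted p = 0.0364). The difference from control skin changed between days, D4 minus D7, by -0.79 ± 0.25 in LE (adjusted p = 0.453) and -0.71 ± 0.25 in the hub (adjusted p = 0.999). Neither change passed the test.

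The smaller differences of Ass1 depended on single arrays and on the fit. The call for the hub at D7 was lost without hub replicate 1 (adjusted p = 0.0510) or 2 (0.132) of D7 and without control replicate 2 of D7 (0.0595). The call for LE against the hub at D4 was lost without LE replicate 1 (adjusted p = 0.178) or 2 (0.0622) of D4, hub replicate 1 (0.189) or 2 (0.0560) of D4, or either hub replicate of D7 (0.0567 each), and with only the 6 arrays of the day (0.0833) or the 4 arrays compared (0.118). That at D7 was lost without LE replicate 1 (adjusted p = 0.230) or 2 (0.0860) of D7 and without hub replicate 1 (0.166) or 2 (0.151) of D7. The second probe set of Ass1 lay above the array median on 1 of 12 arrays, and there LE differed from control skin by 0.54 at D4 (adjusted p = 0.234) and 0.87 at D7 (adjusted p = 0.0539) and the hub by 0.06 and 0.25, none of them called. With the mean of both probe sets in place of the lead, the hub at D7 (adjusted p = 0.0821) and LE against the hub at D4 (0.0988) and D7 (0.0738) were no longer called.

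Arg1, the cytosolic arginase that splits arginine into ornithine and urea, had the largest difference among the 9 genes in the comparison of LE with control skin at D4. Its levels were 10.29 and 9.48 in LE at D4, 5.51 and 5.48 in the hub and 5.74 and 5.08 in control skin. At D7 they were 5.56 and 5.04 in LE, 3.82 and 4.13 in the hub and 4.09 and 3.27 in control skin. On both days the LE arrays were above all hub and control arrays, and the hub arrays overlapped those of control skin. At D4 LE was higher than control skin by a log2 difference of 4.48 ± 0.34 (SE; adjusted p = 4.69e-05) and higher than the hub by 4.39 ± 0.34 (adjusted p = 0.000203), and both calls were kept with any single array left out. At D7 LE was higher than control skin by 1.62 ± 0.34 (adjusted p = 0.0118). This call was lost without LE replicate 1 (adjusted p = 0.101) or control replicate 2 (0.0904) of D7. LE differed from the hub by 1.33 ± 0.34 at D7 (adjusted p = 0.0767), which was not called, but passed with a trended and robust prior (0.0477), with the 6 arrays of the day (0.0460), with the 4 arrays compared (0.0178) and with the replicate block (0.0406).

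Arg1 in the hub gave no call. The difference between the hub and control skin was 0.08 at D4, with a 95% interval of -0.68 to 0.85, and 0.29 at D7, with an interval of -0.47 to 1.05, so changes up to these bounds could not be told apart from 0. The probe set was above the array median on 7 of 12 arrays, all 4 of LE and 3 of the hub and control skin at D4. Control skin and hub thus lay near the array median at D4 and below it at D7, and since the values used carry no detection call, the Arg1 differences are given as differences of deposited log2 values and not as measured folds, which also holds for their change between days. The difference between LE and control skin was 2.86 ± 0.48 larger at D4 than at D7 on the log2 scale (adjusted p = 0.119) and that between LE and the hub 3.07 ± 0.48 larger (adjusted p = 0.336), where 0.0292% and 0.0175% of all genes were called. Neither passed the test, which without LE replicate 2 of D4 called 1 of the 9 genes in each. No member of the 9 was called for a change of the difference between the hub and control skin over days, as for 0% of all genes.

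**Figure D2:**
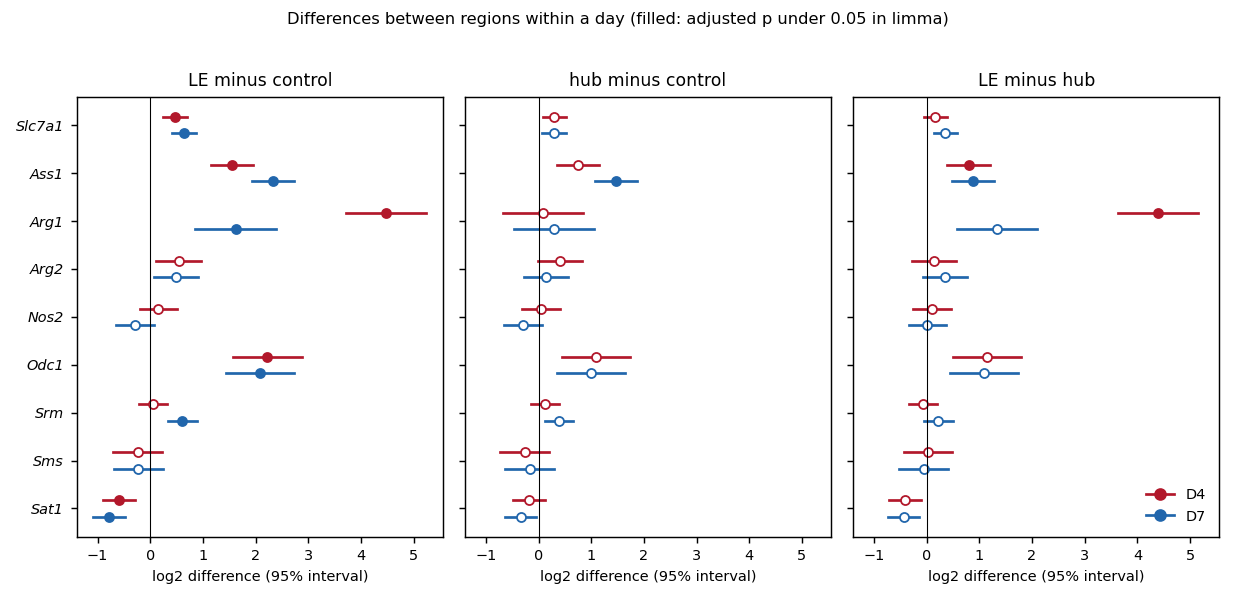
Log2 difference (x axis) with its 95% interval for each gene, for LE minus control, hub minus control and LE minus hub, at D4 in red and at D7 in blue, with filled points where the adjusted p in limma was under 0.05. Arg1 in LE at D4 lies at 4.48 above control, the intervals of Arg1 in the hub span 0, and Sat1 is left of 0 in all panels.

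Since Arg1 is also expressed by macrophages, their markers were examined on the same arrays. Ptprc, the common leukocyte antigen, and 5 of 8 macrophage and monocyte markers (Adgre1, Lyz2, Fcgr1, Mrc1 and Cd163) lay below the array median on all 12 arrays, while Csf1r lay above it on all 12 and differed between LE and control skin by -0.09 ± 0.15 at D4 and 0.01 ± 0.15 at D7. In LE at D4, 1 of the 8 was called higher than in control skin, Cd68, by 1.14 ± 0.31 (adjusted p = 0.0368), and at D7 0 of 8 were. The summed intensity of the 8 markers was 257.2 to 345.6 in LE, 233.4 to 262.9 in the hub and 254.7 to 272.3 in control skin at D4. At D7 it was 121.0 to 130.3 in LE, 112.1 to 127.0 in the hub and 110.2 to 121.6 in control skin. Adgre1, which encodes F4/80, differed between LE and control skin by 0.08 ± 0.13 at D4 and -0.04 ± 0.13 at D7. Of 5 neutrophil markers 3 were measured, of which Csf3r and Mpo were below the median on all arrays and Cxcr2 was higher in LE at D4 by 0.79 ± 0.21 (adjusted p = 0.0316). Their summed intensity at D4 was 82.9 to 103.3 in LE, 80.1 to 81.2 in the hub and 77.4 to 79.7 in control skin. The part of Cd68 and Cxcr2 in the difference of Arg1 was not tested.

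**Figure D3:**
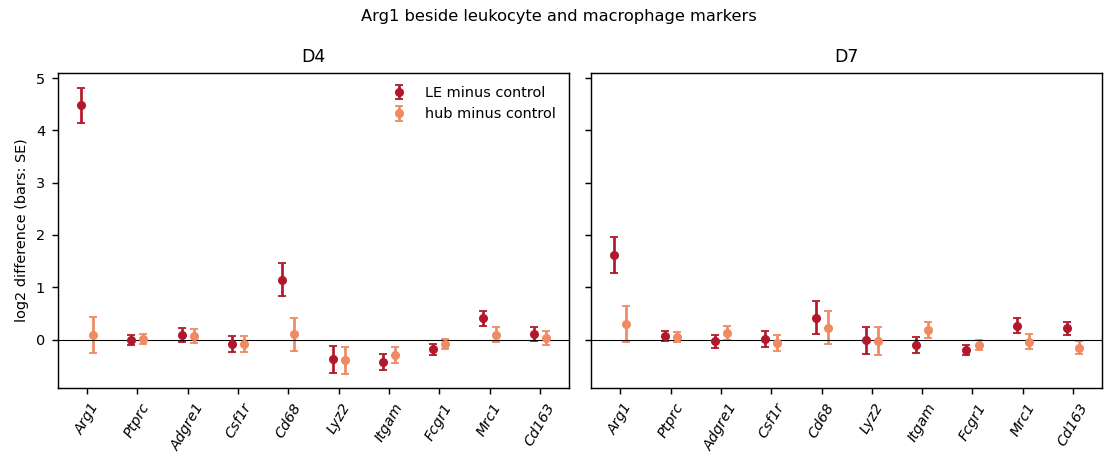
Log2 difference (y axis, bars are SE) of Arg1, Ptprc and 8 macrophage and monocyte markers for LE minus control in red and hub minus control in orange, at D4 on the left and D7 on the right. Arg1 in LE stands at 4.48 at D4 and 1.62 at D7, and Cd68 at D4, at 1.14, is the only marker drawn that was called.

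Arg2, the mitochondrial arginase, had levels of 6.21 and 5.87 in LE, 6.00 and 5.81 in the hub and 5.50 and 5.50 in control skin at D4. At D7 it had 5.21 and 4.95 in LE, 4.67 and 4.81 in the hub and 4.88 and 4.32 in control skin. Both LE arrays were above both control arrays on each day, while LE and hub overlapped at D4 and hub and control skin at D7. The difference between LE and control skin was 0.54 ± 0.19 at D4 (adjusted p = 0.0955) and 0.48 ± 0.19 at D7 (adjusted p = 0.127), and neither was called. It was called at D4 without control replicate 1 or 2 of D7 (adjusted p = 0.0444 each) and at D7 without control replicate 1 of D7 (0.0364).

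Nos2, the inducible nitric oxide synthase that draws on the same arginine, was below the array median on all 12 arrays. Its levels were 5.26 and 5.01 in LE, 5.02 and 5.04 in the hub and 5.14 and 4.82 in control skin at D4. At D7 they were 3.51 and 3.78 in LE, 3.77 and 3.50 in the hub and 4.05 and 3.81 in control skin. The regions overlapped at D4, and at D7 both wound regions lay just below control skin. The difference between LE and control skin was 0.15 at D4, with a 95% interval of -0.20 to 0.51, and -0.28 at D7, with an interval of -0.64 to 0.07, and no comparison of Nos2 passed the test.

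Odc1, ornithine decarboxylase, catalyses the rate-limiting entry into polyamine synthesis. Its levels at D4 were 10.90 and 10.43 in LE, 9.68 and 9.37 in the hub and 8.79 and 8.10 in control skin. At D7 they were 9.36 and 8.66 in LE, 7.69 and 8.15 in the hub and 6.98 and 6.88 in control skin. The 3 regions were separate on both days, with the hub about midway. LE was 4.67-fold higher than control skin at D4 (log2 difference 2.22 ± 0.29 SE, adjusted p = 0.000896) and 4.24-fold higher at D7 (2.08 ± 0.29, adjusted p = 0.00153), both called with any single array left out. The change of this difference between days was 0.14 ± 0.41 (95% interval -0.77 to 1.05). The hub was above control skin by 1.08 ± 0.29 at D4 (adjusted p = 0.168) and by 0.99 ± 0.29 at D7 (adjusted p = 0.173), and LE was above the hub by 1.14 ± 0.29 at D4 (adjusted p = 0.0561) and 1.09 ± 0.29 at D7 (0.0846). These 4 differences had intervals above 0 but did not pass the adjusted test. LE against the hub did pass at D4 with the replicate number as a block (adjusted p = 0.0316), with a trended and robust prior (0.0414) and with dim genes left out (0.0455), and at D7 with the block (0.0484). LE against the hub at D4 was called without control replicate 1 or 2 of D4 (adjusted p = 0.0345 each) or LE replicate 1 or 2 of D7 (0.0482 each).

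Srm, spermidine synthase, adds an aminopropyl group to putrescine. It stood at 10.82 and 10.70 in LE, 10.96 and 10.70 in the hub and 10.83 and 10.58 in control skin at D4, and the regions overlapped. At D7 it stood at 9.65 and 9.60 in LE, 9.41 and 9.39 in the hub and 8.99 and 9.05 in control skin, without overlap. LE differed from control skin by 0.05 ± 0.12 at D4 (adjusted p = 0.874) and was 1.52-fold higher at D7 (0.61 ± 0.12, adjusted p = 0.00926). The call at D7 was lost without LE replicate 1 (adjusted p = 0.0682) or control replicate 1 (0.0575) of D7. The difference between LE and control skin changed by -0.55 ± 0.17 between days, D4 minus D7, with an adjusted p of 0.445, so a difference between the days was not shown.

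Sms, spermine synthase, makes spermine from spermidine and gave no call. Its levels were 8.11 and 7.89 in LE, 8.27 and 7.67 in the hub and 8.47 and 8.01 in control skin at D4. At D7 they were 7.18 and 6.97 in LE, 7.06 and 7.21 in the hub and 7.32 and 7.29 in control skin. The regions overlapped at D4, and at D7 control skin was just above both wound regions. The difference between LE and control skin was -0.24 ± 0.21 at D4 and -0.23 ± 0.21 at D7, and over the other 2 probe sets it ran from -0.36 to -0.06, none of them called.

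Sat1, the acetyltransferase that marks spermidine and spermine for breakdown or export, was the only member called lower. Its levels at D4 were 10.67 and 10.49 in LE, 10.97 and 11.02 in the hub and 11.17 and 11.17 in control skin. At D7 they were 9.37 and 8.99 in LE, 9.54 and 9.70 in the hub and 9.95 and 9.97 in control skin. LE arrays were lowest and control arrays highest on both days, with no overlap. Sat1 was lower in LE than in control skin by a log2 difference of -0.59 ± 0.13 at D4 (SE; adjusted p = 0.0165), and of -0.78 ± 0.13 at D7 (adjusted p = 0.00449). The call at D4 was lost without LE replicate 2 (adjusted p = 0.0925) or control replicate 1 (0.0626) or 2 (0.0667) of D4, and with only the 4 arrays compared (0.0720). The hub differed from control skin by -0.17 at D4 (adjusted p = 0.782) and -0.34 at D7 (adjusted p = 0.321), and LE from the hub by -0.42 and -0.44 (adjusted p = 0.130 each), the second of which passed with a trended and robust prior (0.0494).

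**Figure D4:**
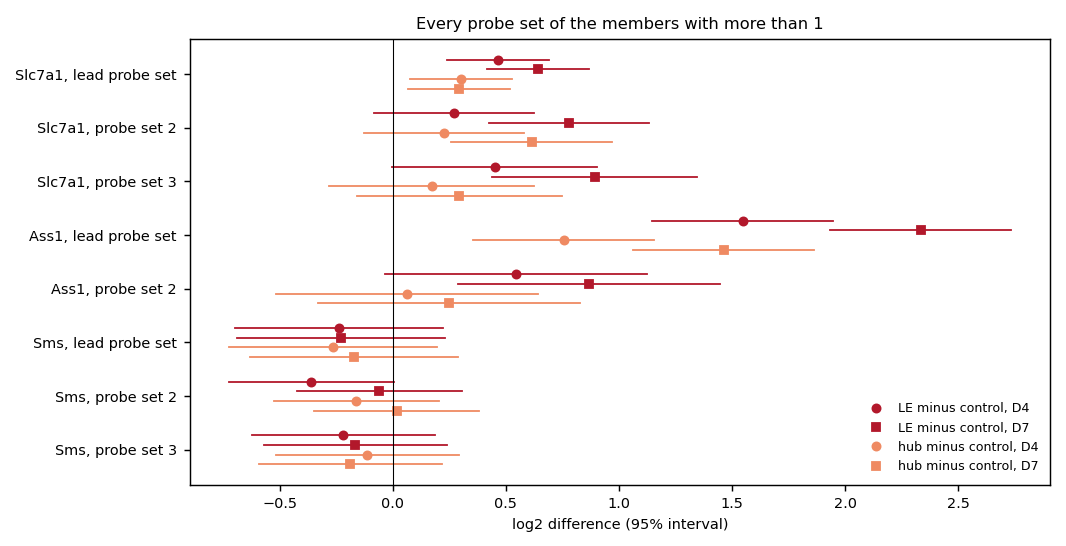
Log2 difference (x axis) with its 95% interval for every probe set of Slc7a1, Ass1 and Sms, the genes with more than 1, for LE minus control in red and hub minus control in orange, with circles for D4 and squares for D7. All 3 probe sets of Slc7a1 lie above 0 in LE at both times, the second Ass1 probe set lies at 0.54 and 0.87, and the Sms probe sets in LE lie between -0.36 and -0.06.

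The methods of the study define a signature by a change of more than 2-fold in each replicate, and here each array was compared with the one of the same number and day. Whether a gene must pass at both times is not stated in the methods, and both were required here. None of the 9 genes met it in both wound regions against control skin at both times, and none met it for LE against the hub at both times, where 0.17% and 0.749% of all genes did. Odc1 fell short for LE against the hub at 1 array pair, with log2 differences of 1.21 and 1.06 at D4 and 1.67 and 0.51 at D7. Arg1 did so as well, with 4.78 and 4.01 at D4 and 1.74 and 0.91 at D7. At D4 alone Arg1 and Odc1 were thus over 2-fold in each array pair, for which the share of all genes was not computed. By group means in place of array pairs, 2 genes met the rule for LE against the hub, Arg1 and Odc1. The share of all genes that met the rule by group means was not computed.

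Other genes of the same metabolism were counted from lists of 53 genes, of which 45 were measured. At D4, 6 were called higher and 6 lower in LE than in control skin, and at D7 it was 7 and 6. Over all genes tested, 8.3% were called higher and 5.83% lower at D4, and 9.25% and 5.37% at D7. In the hub 0 of the 45 were called at either time in limma. All genes had 0.222% (D4) and 0.591% (D7) called higher there and 0.105% (D4) and 0.17% (D7) lower. Against the hub, 1 was higher in LE and 3 were lower at D4, beside 2.61% and 2.15% of all genes. At D7, 0 and 1 were, beside 1.33% and 1.4%. The same shares stand beside the counts of each list below. The median difference of the 45 genes between LE and control skin was 0.01 at D4 and 0.04 at D7.

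Of 10 measured genes of the urea cycle and of arginine use, 2 were called higher in LE at D4. Asl, which releases arginine from the product of Ass1, was higher by 0.67 ± 0.14 at D4 (adjusted p = 0.0113) and 0.74 ± 0.14 at D7 (adjusted p = 0.00743). Ddah1, which breaks down methylarginines that inhibit nitric oxide synthases, was higher at D4 by 1.34 ± 0.18 against control skin (adjusted p = 0.00106) and by 1.34 ± 0.18 against the hub (adjusted p = 0.00323). At D7, Gamt, the last enzyme of creatine synthesis, was lower by a log2 difference of -1.01 ± 0.20 (adjusted p = 0.00901), and Oat, which diverts ornithine towards glutamate and proline, by -0.71 ± 0.16 (adjusted p = 0.0145). Gamt in the hub at D7 differed from control skin by -1.02 ± 0.20 (adjusted p = 0.0601, not called), and LE from the hub by 0.005. Its means in LE and the hub at D7, 3.62 and 3.61, lay below the array medians of that day. Among 10 amino acid transporters that were listed for arginine and ornithine, 1 was called, Slc7a6, an exchanger of cationic for neutral amino acids. Slc7a6 differed by -1.59 ± 0.11 at D4 (adjusted p = 3.47e-05) and -1.03 ± 0.11 at D7 (adjusted p = 0.000473) from control skin, and from hub arrays by -1.39 at D4 (adjusted p = 0.000215) and -0.75 at D7 (0.0108). This fall in LE went the other way from the rise of Slc7a1.

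In the list of proline synthesis, 2 of 4 measured genes were lower in LE at D4, and both belong to the breakdown of proline. Prodh, its first enzyme, differed from control skin by -1.44 ± 0.15 (adjusted p = 0.000261) and from the hub by -1.09 ± 0.15 (adjusted p = 0.00338), and Aldh4a1, the next one, differed from control skin by -0.60 ± 0.13 (adjusted p = 0.0112). Of 4 measured regulators of ornithine decarboxylase, Azin1, which protects the enzyme from antizyme, was lower in LE, by -0.75 ± 0.15 at D4 (adjusted p = 0.0103) and -0.55 ± 0.15 at D7 (adjusted p = 0.0409), while Odc1 itself was higher. Of 7 measured genes of polyamine breakdown and transport, 2 were higher in LE at both times. Smox, the oxidase that turns spermine back into spermidine, was higher by 1.15 ± 0.25 at D4 (adjusted p = 0.0140) and 1.66 ± 0.25 at D7 (adjusted p = 0.00242), while Sat1, which also acts in breakdown, was lower. Atp13a3, a polyamine transporter, was higher by 0.62 ± 0.17 at D4 (adjusted p = 0.0387) and 0.72 ± 0.17 at D7 (adjusted p = 0.0201). Of 3 measured genes of hypusination, which uses spermidine to modify the translation factor eIF5A, 1 was called, Dohh, higher by 0.62 ± 0.15 (adjusted p = 0.0207) at D7.

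The making of spermidine and spermine leaves methylthioadenosine, which the methionine salvage pathway recycles. In the list of the methionine cycle and this pathway 7 genes were measured, of which 2 were higher and 2 lower in LE at D4, and 3 and 2 were at D7. Mtap, the first enzyme of salvage, was higher by 0.88 ± 0.14 at D4 (adjusted p = 0.00276) and 1.10 ± 0.14 at D7 (adjusted p = 0.000951). Enoph1, a later enzyme, was higher by 0.74 ± 0.17 (adjusted p = 0.0188) and 0.66 ± 0.17 (adjusted p = 0.0318). Ahcy, which splits S-adenosylhomocysteine, was higher at D7 by 0.65 ± 0.09 (adjusted p = 0.00138). Mri1, the enzyme after Mtap, was lower at D4, by -0.90 ± 0.16 against control skin (adjusted p = 0.00416) and -0.89 ± 0.16 against the hub (adjusted p = 0.0111). Adi1 was lower by -0.39 ± 0.11 at D4 (adjusted p = 0.0362) and -0.37 ± 0.11 at D7 (adjusted p = 0.0430), and Apip by -0.81 ± 0.18 at D7 (adjusted p = 0.0133). The salvage enzymes therefore did not move in 1 direction.

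**Figure D5:**
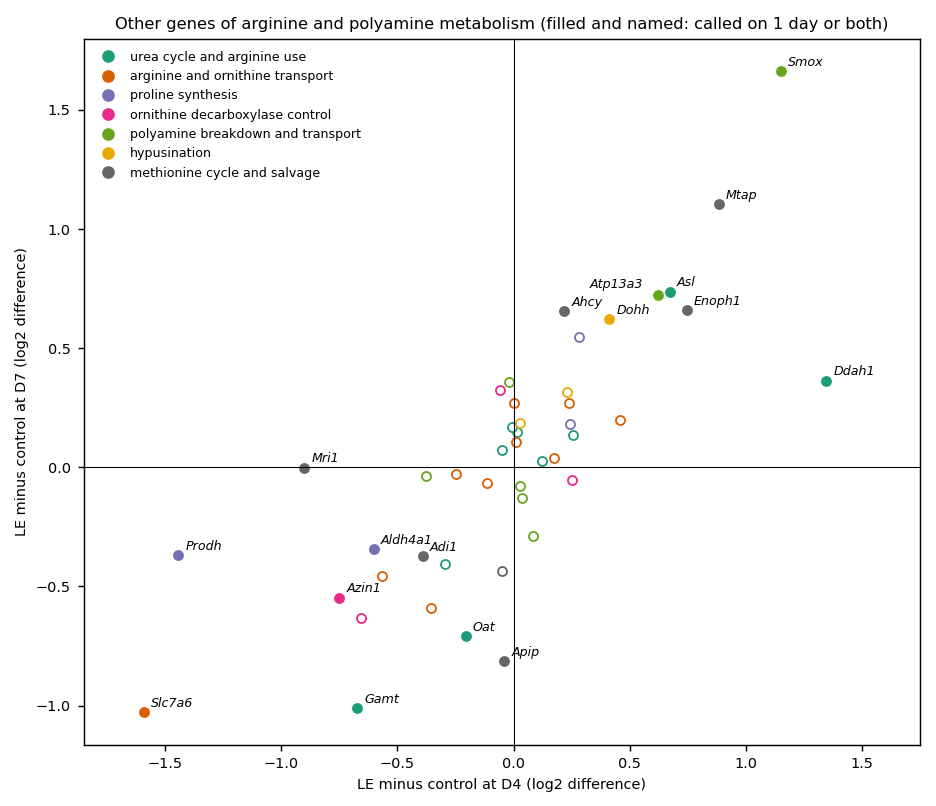
Log2 difference of LE minus control at D4 (x axis) and at D7 (y axis) for 45 measured genes of arginine, polyamine and methionine metabolism other than the 9, coloured by list, with filled and named points where limma called the gene on 1 day or both. Smox and Mtap are at the upper right, at 1.66 and 1.10 on the D7 axis, and Slc7a6 is at the lower left, at -1.59 and -1.03.

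The genes whose values over the 12 arrays were most like those of Arg1 and of Odc1 were ranked by Pearson r after the mean of each day was subtracted, among 2998 genes with a range of at least 1 on the log2 scale. For Arg1 these were Itpkb (r = 0.982), Kctd12 (0.975), Tll1 (0.974), Gjb6 (0.974) and Fgf18 (0.973). In LE against control skin, Gjb6, which encodes a gap junction connexin, differed by 3.88 at D4 and 1.17 at D7, and Fgf18, a fibroblast growth factor, by 2.10 and 1.00, while Gjb6 in the hub differed by 0.59 and 0.06. For Odc1 they were Pdpn (r = 0.984), Sqle (0.982), Tinagl1 (0.981), Actn1 (0.980) and Dsc2 (0.979). Pdpn, the membrane glycoprotein podoplanin, differed by 3.14 and 3.37 in LE and by 1.49 and 1.53 in the hub, and Sqle, of cholesterol synthesis, by 2.28 and 1.87 in LE and by 1.20 and 1.03 in the hub. The 5 genes like Arg1 thus stood out mainly in LE at D4, and those like Odc1 lay above control skin in both regions on both days. These correlations describe 12 arrays in 6 groups, and the genes were chosen for this likeness, so no test was made.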

How the data were processed

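The deposited log2 intensities were computed by the authors with RMA from PM strip arrays for mouse, hybridized with amplified cDNA of sorted cells. The RMA version was not given in the sources used here. The table held 45141 probe sets, of which 28898 had 1 gene, 551 several genes, 15588 no gene listed and 104 were controls. Only the first kind was used, and 28689 of them were matched by gene identifier with 0 symbols changed. No dim probe set was removed and nothing was normalized again.

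One model of the 6 groups was fitted in limma 3.58.1 (R 4.3.3) with 6 residual degrees of freedom, and every adjusted p is from its moderated test (two-sided, Benjamini-Hochberg over 17097 lead probe sets). The number of arrays, 2 a group, limits the precision. The procedure was run on simulated data with independent noise on every array, which cannot test whether the 2 arrays of a group are independent.

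The 10 members, the lists and the motifs were chosen with earlier results of these data known. Named are all members, the genes of the lists called in any comparison (at most 6 a list), and the 5 genes closest in pattern to Arg1 and to Odc1. The alternatives were 2 scalings, the mean of all probe sets, a filter on dim genes, array weights, another prior, fits on fewer arrays, a replicate block, group means in the fold rule, and each array left out in turn. Promoters came from RefSeq (GRCm38.p6), and the set used had no entry for Arg1, Arg2, Nos2 and Srm.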

Additional observations from a re-analysis of the deposited data

How the results depend on the processing

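The values rest on 2 arrays a group, and the depth behind a microarray value is set by its signal, which for Nos2, the second Ass1 probe set and Arg1 in the hub and control skin lay near or below the array median. Of 54 differences of members, 54 kept direction and call when array medians were subtracted or array weights were used and 53 after quantile normalization, where Srm in LE against control at D4 turned to -0.029 and was not called on either scale. With the filter on dim genes, which left 8 of the 9 members, 47 of 48 did, 49 with the mean of all probe sets, 49 with a trended and robust prior, 52 with the 6 arrays of the day and 50 with the 4 arrays compared. With the mean of all probe sets Sms in LE against the hub at D4 turned to -0.093, uncalled.

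The count of members called for LE against control at D4 was 3 with only the 4 arrays compared. That setting called 895 of all genes, beside 1419 higher and 997 lower in the fit used above. For the hub against control the count of members was 1 at D4 under the trended and robust prior and 0 at D7 with the mean of all probe sets. Of all genes these called 148 and 138, beside 38 higher and 18 lower at D4 and 101 and 29 at D7 in the fit used above. For LE against the hub at D4 the count of members was 1 with the mean of all probe sets, 1 with the 6 arrays of the day and 1 with the 4 arrays compared. Of all genes these called 917, 263 and 196, beside 446 higher and 367 lower in the fit used above. At D7 the count of members was 0 with the mean of all probe sets, 4 under the trended and robust prior, 2 with the 6 arrays, 2 with the 4 arrays and 3 under the replicate block. Of all genes these called 539, 672, 725, 672 and 691 in that order, beside 227 higher and 239 lower in the fit used above. By the fold of group means 2 members met the fold rule, for which the share of all genes was not computed. The cause of these changes was not tested.

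Same-numbered arrays deviated together with r of 0.170 to 0.245 at D4 and 0.002 to 0.067 at D7, so every pair of regions was over 0.1 at D4 and none at D7, and the labels do not say what a number marks. A replicate block called 3 members for LE against the hub at D4, where Odc1 was gained (adjusted p = 0.0316), and 3 at D7, where Arg1 (0.0406) and Odc1 (0.0484) were gained, and it lost no call. Of all genes the block called 1014 in that comparison at D4 and 691 at D7.

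With each array left out in turn, the members called ran from 3 to 6 for LE against control at D4 and 4 to 6 at D7, 0 to 0 and 0 to 1 for the hub, 1 to 3 and 0 to 1 for LE against the hub, 0 to 1 for the change between days of LE against control and of LE against the hub, and 0 to 2 by the fold rule. Uncalled differences that changed sign were Arg1 in the hub (-0.25 to 0.42 at D4, -0.12 to 0.70 at D7), Arg2 in the hub at D7 (-0.14 to 0.42) and in LE against the hub at D4 (-0.033 to 0.30), Nos2 in LE at D4 (-0.0038 to 0.31), in the hub at D4 (-0.11 to 0.21) and in LE against the hub (-0.015 to 0.23 at D4, -0.12 to 0.15 at D7), Srm in LE at D4 (-0.069 to 0.18), in the hub at D4 (-0.0025 to 0.25) and in LE against the hub at D4 (-0.20 to 0.056), and Sms in the hub at D4 (-0.57 to 0.035) and in LE against the hub (-0.27 to 0.33 at D4, -0.16 to 0.045 at D7).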
